A study of Mus musculus with 32 samples.

Results

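The regions described here are 801 PRDM9 peaks of B6 mouse testis that carried the marks of a recombination hotspot and had no counterpart in the PRDM9 peaks of Spo11KO testis. They were chosen on measured values. A B6 PRDM9 interval had to overlap, by at least 1 bp, the central 400 bp of a B6 DMC1 interval. At least 10% of its length had to lie under B6-specific H3K4me3 and less than 10% under H3K4me3 common to the B6 and RJ2 strains. Finally, it had to overlap no Spo11KO PRDM9 interval. The DMC1 and H3K4me3 conditions alone held for 1650 of the 2601 B6 PRDM9 peaks, called class 1a. Of these, 801 were not detected in Spo11KO and 849 were still detected. The Spo11KO mice carry the Spo11tm1M allele, which abolishes meiotic double-strand breaks. Both the Spo11KO mice and the C57BL/6JOlaHsd (B6) mice they were set against carry the Dom2 allele of Prdm9. PRDM9 was immunoprecipitated from whole testis at 13 days post-partum, with 2 replicates per genotype, each from the pooled testes of several mice. Further lists came from Prdm9KO testis (B6;129P2-Prdm9tm1Ymat/J, 1 PRDM9 library, same age) and from RJ2 mice (B10.MOLSGR(A)-(D17Mit58-D17Jcs11)/Bdm), which express the Cst allele of Prdm9. DMC1 was mapped in whole testis at 5 weeks, with 2 replicates per strain, and H3K4me3 in pachytene cells elutriated from adult testis, with 1 library per strain. No DMC1 or H3K4me3 list of Spo11KO mice was used here. The peaks were called on pooled replicates and are given as positions alone, with no value per replicate. Every interval and p therefore measures the spread between peaks and not between mice. Depth behind a single peak is unknown. The Spo11KO list is the shorter one, with 1070 peaks, and its libraries have fewer mapped read pairs than the B6 ones. Genotype and depth cannot be told apart in the counts.

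PRDM9 is a meiosis-specific protein whose zinc finger array binds DNA and whose PR/SET domain trimethylates histone H3 on lysine 4 at the nucleosomes around its binding site. SPO11 then cuts the DNA at some of these sites, and DMC1, a meiotic recombinase, coats the single-stranded ends, so that DMC1 ChIP marks where breaks were made. Binding and methylation by PRDM9 come before the cut, while DMC1 signal needs it.

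The sequence that the Dom2 zinc fingers recognise was taken from 12831 B6 DMC1 peaks that met no B6 or Spo11KO PRDM9 peak, so that none of the compared peaks took part. The 9-base word most over-represented in their central 200 bp, on either strand, was TGCTGCTGC, present in 4.39% of these centres against 0.507% of windows of the same length beside them. A 21-base matrix was grown from it, and a score over 10.2 bits, passed by 5% of the windows beside the DMC1 peaks, is called a match. The windows of 61 bases printed here hold the best-scoring stretch in the central 200 bp, in capitals, with 20 bases on each side, read 5′ to 3′ on the strand given, from mm9. They show that high-listed peaks of both kinds can carry a close match. The first 5 belong to the undetected peaks highest in the B6 list that have a match, and the next, at position 231, to a high-listed one without a match. The 3 undetected peaks with the highest scores follow, and then the 3 still detected peaks highest in the list that have a match.
Not detected, list position 1, chr4:119915556-119915616, minus strand: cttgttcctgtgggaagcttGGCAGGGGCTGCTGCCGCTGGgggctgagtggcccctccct
Not detected, list position 118, chr9:43943465-43943525, minus strand: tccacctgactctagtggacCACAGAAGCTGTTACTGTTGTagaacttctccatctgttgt
Not detected, list position 168, chr7:105537894-105537954, minus strand: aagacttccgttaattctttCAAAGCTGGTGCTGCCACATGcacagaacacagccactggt
Not detected, list position 207, chr12:16650853-16650913, plus strand: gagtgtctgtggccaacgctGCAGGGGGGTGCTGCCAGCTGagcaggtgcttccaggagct
Not detected, list position 260, chr5:145600420-145600480, minus strand: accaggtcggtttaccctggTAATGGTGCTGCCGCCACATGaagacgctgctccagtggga
Not detected, list position 231, chr4:139006945-139007005, minus strand: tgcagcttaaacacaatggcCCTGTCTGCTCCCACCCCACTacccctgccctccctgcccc
Not detected, list position 891, chr2:69850846-69850906, minus strand: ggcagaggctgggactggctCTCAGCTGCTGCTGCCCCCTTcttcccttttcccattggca
Not detected, list position 2489, chr15:34213030-34213090, plus strand: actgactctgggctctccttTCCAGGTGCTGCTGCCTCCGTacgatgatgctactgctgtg
Not detected, list position 2221, chr11:44344467-44344527, minus strand: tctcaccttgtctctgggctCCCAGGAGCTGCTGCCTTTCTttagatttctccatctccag
Still detected, list position 2, chr12:27374364-27374424, plus strand: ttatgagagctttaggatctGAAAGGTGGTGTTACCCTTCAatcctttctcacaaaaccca
Still detected, list position 3, chr8:33360685-33360745, minus strand: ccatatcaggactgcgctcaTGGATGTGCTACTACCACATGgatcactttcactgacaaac
Still detected, list position 6, chr14:57103990-57104050, minus strand: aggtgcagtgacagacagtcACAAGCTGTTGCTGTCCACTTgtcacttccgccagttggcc
The core of the best matches, GCTGCTGCC, is seen in undetected peaks at positions 891, 2489 and 2221 of the list. The score was 22.7, 22.4 and 22.1 bits in these 3. The same letters also stand in the stretch at position 1. The undetected peaks at positions 891, 2489 and 2221 were chosen for their score. The still detected peaks were chosen for their place in the list among those with a match. The scores of the 2 kinds are therefore not to be compared. Positions 4 and 5, also still detected, had no match (1.38 and -1.42 bits) and were left out. The still detected peaks at positions 2, 3 and 6 scored 11.7, 11.9 and 17.0 bits, and the undetected stretch at position 231 scored 1.14 bits. The highest score among all class 1a peaks, 23.3 bits, was that of still detected peaks.

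Class 1a peaks without a Spo11KO peak made up 48.5% of their class (95% Clopper-Pearson interval 46.1 to 51.0%), beside 64.5% of all 2601 B6 PRDM9 peaks and 92.2% (90.3 to 93.8%) of the 951 B6 peaks outside class 1a. The rule fixed this share, and nothing is read from it. The share moved with the position in the B6 list, which runs from wide to narrow peaks (Spearman's rho -0.77 between position and width over the 2601 peaks, a description). With the list cut into 10 equal parts (deciles), 10 of 175 class 1a peaks of the first decile (5.71%, interval 2.77 to 10.3%) were not detected in Spo11KO, against 95 of 194 in the fifth decile (49.0%) and 69 of 83 in the last (83.1%, interval 73.3 to 90.5%). Undetected peaks had a median position of 1604 and still detected peaks of 716, and their median widths were 453 and 560 bp. These measures come from the contrast that chose the peaks and are given as a description, with no test. The plot by list position shows both the shares and the GC content described next.

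**Figure D1:**
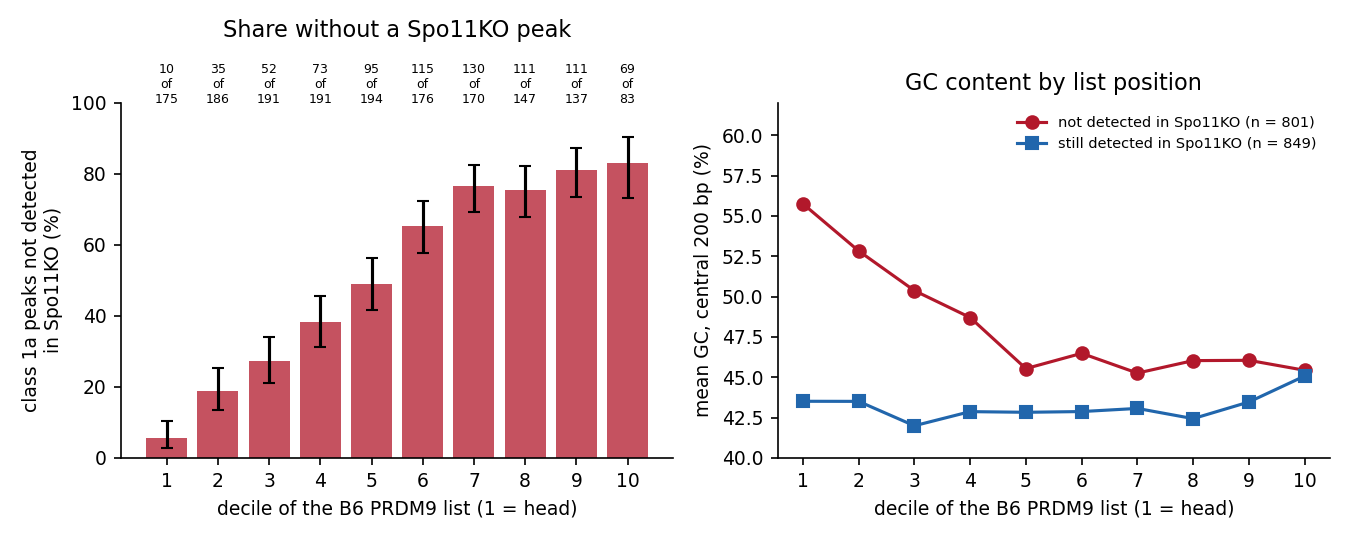
Left, percent of class 1a peaks not detected in Spo11KO in each decile of the B6 PRDM9 list, with 95% Clopper-Pearson intervals and the counts above the bars. Right, mean GC content of the central 200 bp in the same deciles, for undetected (red) and still detected (blue) peaks. The share is 5.71% in the first decile and 83.1% in the last, and the undetected peaks of the first decile average 55.8% GC.

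Few peaks lay near the limits of the rule. The undetected peak with the least B6-specific H3K4me3 had 32.8% of its length under the mark (chrX:92847728-92848123, list position 1482), and peaks outside the limit had none, the highest-listed being chr4:136729886-136730723 at position 270. The least common H3K4me3 among the peaks set aside for it was 17.8% (chr12:48436494-48436880). A single undetected peak lay within 250 bp of a Spo11KO peak, at 73 bp (chr12:25925226-25925999, position 507), and the next were 3335 bp (chr4:134033277-134034341) and 3691 bp (chrX:42477300-42477789) away. In all, 5 of 801 lay within 5000 bp of a Spo11KO peak, and the median distance was 735 kb. Among the still detected peaks the smallest overlap with a Spo11KO peak was 238 bp (chr8:32201729-32202299), and the median overlap was 444 bp. A peak just outside the DMC1 condition missed the central 400 bp of a DMC1 interval by 110 bp (chr14:71170131-71170509).

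Undetected hotspots were richer in G and C than still detected ones. The central 200 bp held 46.8 ± 7.06% G or C in undetected peaks (SD, n = 801) and 43.0 ± 6.10% in still detected peaks (SD, n = 849). The lowest, median and highest values were 26, 47 and 64% in undetected peaks, against 24, 43 and 63% in still detected ones. The distributions overlapped over nearly their whole range. Centres with at least 50% GC made up 36.8% of undetected peaks (295 of 801, interval 33.5 to 40.3%) and 11.8% of still detected peaks (100 of 849, interval 9.69 to 14.1%). The test was a logistic fit over the class 1a peaks, in which an odds ratio above 1 means that peaks with higher values more often lacked a Spo11KO peak. The odds of having no Spo11KO peak were multiplied by 1.82 for each SD of GC content (6.85 percentage points; 95% interval 1.63 to 2.03; adjusted p = 9.02e-30, likelihood-ratio test, Benjamini-Hochberg over 12 measures, n = 1650 peaks). At equal list position and PRDM9 width in B6 the odds ratio was 2.16 (1.89 to 2.46; adjusted p = 5.11e-34, n = 1650 peaks). CpG dinucleotides, the sites of DNA methylation in mammals, averaged 2.11 ± 1.97 in the central 200 bp of undetected peaks and 1.52 ± 1.50 in still detected ones (SD). The odds ratio was 1.63 per SD at equal list position and width (1.44 to 1.84; adjusted p = 1.16e-15, n = 1650 peaks). CpG count was not fitted together with GC content, of which its bases are a part. At least 5 CpG were found in 11.1% of undetected centres and 5.18% of still detected ones.

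The central windows of 3 undetected peaks and 3 still detected peaks from the head of the list show this composition, with every run of 5 or more G or C in capitals (mm9, plus strand). The choice of these windows was made after their GC content was known. The undetected ones are GC-rich even for their group, and the still detected ones include a GC-rich one.
Not detected, list position 1, chr4:119915506-119915705, plus strand: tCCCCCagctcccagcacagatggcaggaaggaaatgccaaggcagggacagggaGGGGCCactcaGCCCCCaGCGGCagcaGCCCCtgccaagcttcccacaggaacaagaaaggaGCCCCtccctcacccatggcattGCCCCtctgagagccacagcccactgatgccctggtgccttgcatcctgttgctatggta
Not detected, list position 154, chr11:80291347-80291546, plus strand: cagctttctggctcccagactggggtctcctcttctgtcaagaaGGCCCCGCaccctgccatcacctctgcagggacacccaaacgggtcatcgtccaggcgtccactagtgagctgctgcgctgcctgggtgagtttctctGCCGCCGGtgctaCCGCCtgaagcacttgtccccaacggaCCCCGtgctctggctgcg
Not detected, list position 207, chr12:16650716-16650915, plus strand: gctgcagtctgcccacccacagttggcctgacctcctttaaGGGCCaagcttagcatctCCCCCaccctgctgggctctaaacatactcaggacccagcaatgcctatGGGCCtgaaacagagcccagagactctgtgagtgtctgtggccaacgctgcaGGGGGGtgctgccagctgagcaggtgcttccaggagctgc
Still detected, list position 2, chr12:27374235-27374434, plus strand: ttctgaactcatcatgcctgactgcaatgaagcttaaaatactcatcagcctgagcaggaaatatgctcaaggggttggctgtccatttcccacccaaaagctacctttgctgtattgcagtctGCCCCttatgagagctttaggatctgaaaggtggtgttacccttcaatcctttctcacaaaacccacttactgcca
Still detected, list position 3, chr8:33360581-33360780, plus strand: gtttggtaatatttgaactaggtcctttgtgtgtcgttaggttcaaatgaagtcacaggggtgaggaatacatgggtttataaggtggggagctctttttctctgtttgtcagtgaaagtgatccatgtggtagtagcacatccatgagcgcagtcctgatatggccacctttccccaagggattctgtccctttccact
Still detected, list position 5, chr5:134482484-134482683, plus strand: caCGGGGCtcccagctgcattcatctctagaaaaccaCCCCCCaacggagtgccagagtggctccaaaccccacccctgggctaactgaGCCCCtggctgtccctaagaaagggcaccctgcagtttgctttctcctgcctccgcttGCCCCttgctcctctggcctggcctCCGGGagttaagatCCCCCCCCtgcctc
The undetected windows at positions 1, 154 and 207 held 63, 64 and 60.5% G or C, with 7, 4 and 4 such runs. The still detected windows at positions 2 and 3 held 45.5% each, with 1 and 0 runs, while that at position 5 held 63% with 6 runs. High-listed peaks of both kinds departed from this contrast. Still detected peaks at positions 8, 10 and 12 held 62.5, 56 and 54.5% G or C, and undetected peaks at positions 99 and 258 held 44 and 48%. In the first 260 places of the list, 8 of 10 undetected and 27 of 165 still detected centres had at least 50% GC. Over all peaks the number of runs averaged 1.12 ± 1.18 in undetected and 0.684 ± 0.918 in still detected centres (SD).

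The difference in GC content was widest at the head of the B6 list, where undetected peaks were few (10 of 175 in the first decile and 35 of 186 in the second). In the first decile undetected peaks averaged 55.8% GC and still detected peaks 43.5%, and in the second decile 52.8 and 43.5%. The undetected average was 50.4% in the third decile, 48.7% in the fourth and between 45.3 and 46.5% in all later ones. The still detected average lay between 42.0 and 43.5% in the first 9 deciles. In the last decile the averages were nearly equal, at 45.4% in 69 undetected and 45.1% in 14 still detected peaks. The list was next cut into 3 equal parts and GC content into 5 groups. In the first part of the list 73 of 121 class 1a peaks of the GC-richest group were undetected (60.3%, interval 51.0 to 69.1%), against 22 of 115 in the next group (19.1%, interval 12.4 to 27.5%) and 8 of 153 in the GC-poorest one (5.23%). In the middle part of the list the counts were 104 of 125 (83.2%), 71 of 124 (57.3%) and 61 of 122, and in the last part 76 of 81 (93.8%), 68 of 85 and 48 of 67 (71.6%). Whether the relation to GC content differed between the parts of the list was not tested. Restricted to the first 1070 places of the B6 list, as many as the Spo11KO list holds, the odds ratio per SD of GC content was 4.10 at equal list position and width (adjusted p = 3.90e-36, n = 767 peaks).

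**Figure D2:**
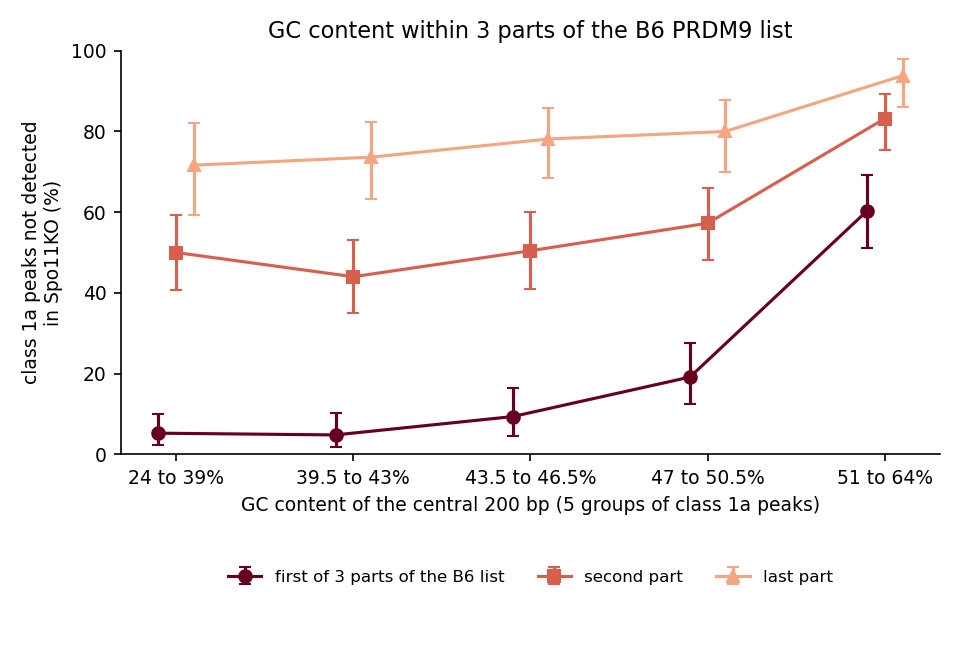
Percent of class 1a peaks not detected in Spo11KO by GC content of the central 200 bp (5 groups) within the first, second and last of 3 equal parts of the B6 PRDM9 list, with 95% Clopper-Pearson intervals. In the first part the share is 60.3% in the group of 51 to 64% GC and 5.23% in the group of 24 to 39% GC.

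The difference in GC content was not confined to the centres. Both kinds of peak showed a local rise at the centre, and undetected peaks lay higher at every distance out to 2 kb. In windows of 200 bp centred 1.1 kb to either side, the GC content averaged 44.1 ± 6.68% around undetected peaks and 41.2 ± 5.55% around still detected ones (SD). These windows, chosen after the data were seen, gave an odds ratio of 1.96 per SD at equal list position and width (adjusted p = 2.21e-26, n = 1650 peaks). Other groups of peaks are given as a description. The 147 Spo11KO peaks that met no peak of the deposited B6 list averaged 43.5 ± 5.53% GC (SD), close to the 43.2 ± 5.95% of the 923 that met one. That list lacks B6 peaks shared with RJ2 or seen in Prdm9KO, so some of the 147 may lie on a B6 peak removed from it. In B6, class 2A peaks, which lie in common H3K4me3 without DMC1, had a median of 61% GC. Of these, 0 of 460 had a Spo11KO peak, which allows a share of up to 0.652% (3 counts of 460). The paper places most class 2A sites at promoters and calls them Spo11-dependent. It calls class 1 sites, which include the hotspots described here, Spo11-independent. It says the same of class 2B sites, which have neither DMC1 nor H3K4me3. The paper allows that the smaller number of Spo11KO peaks could come from a less sensitive experiment. Peaks with neither DMC1 nor H3K4me3 averaged 49.9% GC, and 255 of 260 had no Spo11KO peak. The counts were 98 of 135 with DMC1 alone (48.2% GC), 21 of 24 with B6-specific H3K4me3 alone (49%) and 43 of 72 with DMC1 in common H3K4me3 (46.0%). The part of the GC content of the sequenced libraries in these differences was not tested, since the lists hold no reads.

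**Figure D3:**
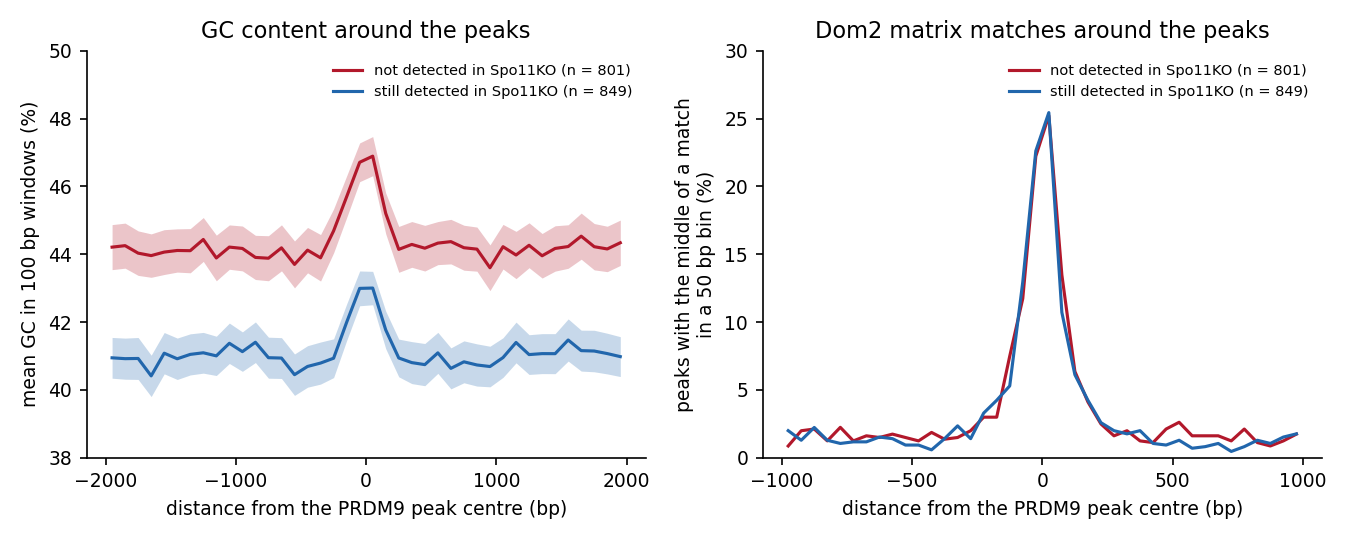
Left, mean GC content in windows of 100 bp by distance from the PRDM9 peak centre, with bands of 2 standard errors over peaks. Right, percent of peaks with the middle of a Dom2 matrix match in each bin of 50 bp. Undetected peaks (red, n = 801) lie above still detected ones (blue, n = 849) in GC content at all distances drawn, and the match profiles nearly coincide, at 25.2% and 25.4% in the bin just right of the centre.

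Undetected hotspots had narrower H3K4me3 and DMC1 intervals in B6. H3K4me3 is the mark that PRDM9 itself deposits. The B6-specific interval over an undetected peak spanned a median of 1081 bp, against 1319 bp over a still detected peak (interquartile ranges 879 to 1307 bp and 1070 to 1564 bp). The odds ratio per SD of log2 width was 0.53 (0.47 to 0.59; adjusted p = 2.44e-32) and 0.65 at equal list position and PRDM9 width (0.57 to 0.74; adjusted p = 3.11e-10, n = 1650 peaks). In the narrowest of 5 groups by H3K4me3 width 222 of 332 class 1a peaks were undetected (66.9%), and in the widest 92 of 330 (27.9%). The full PRDM9 interval lay under the mark at 84.4% of undetected peaks (interval 81.7 to 86.8%) and 91.5% of still detected ones (89.4 to 93.3%). DMC1 intervals, which span the resected ends on both sides of breaks, had medians of 1960 bp at undetected and 2110 bp at still detected peaks. The odds ratio was 0.61 per SD alone (0.55 to 0.68; adjusted p = 2.16e-20) and 0.83 at equal list position and width (0.74 to 0.94; adjusted p = 0.00499, n = 1650 peaks). With GC content added to that fit, an alternative chosen after the data were seen, the odds ratio for DMC1 width was 0.91 and no longer passed (adjusted p = 0.173), while that for H3K4me3 width was 0.75 (adjusted p = 0.000144, n = 1650 peaks). From the centre of the PRDM9 interval to that of the DMC1 interval the median distance was 79 bp at undetected and 82 bp at still detected peaks. This difference did not pass in either main fit (odds ratio 1.06 at equal list position and width, 0.95 to 1.19; adjusted p = 0.329, n = 1650 peaks). It passed with list position alone as the covariate (1.15; adjusted p = 0.0179, n = 1650 peaks). The range of this distance is partly set by the rule and by PRDM9 width. The PRDM9 interval had to meet the central 400 bp of the DMC1 interval, and that last fit left width out.

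**Figure D4:**
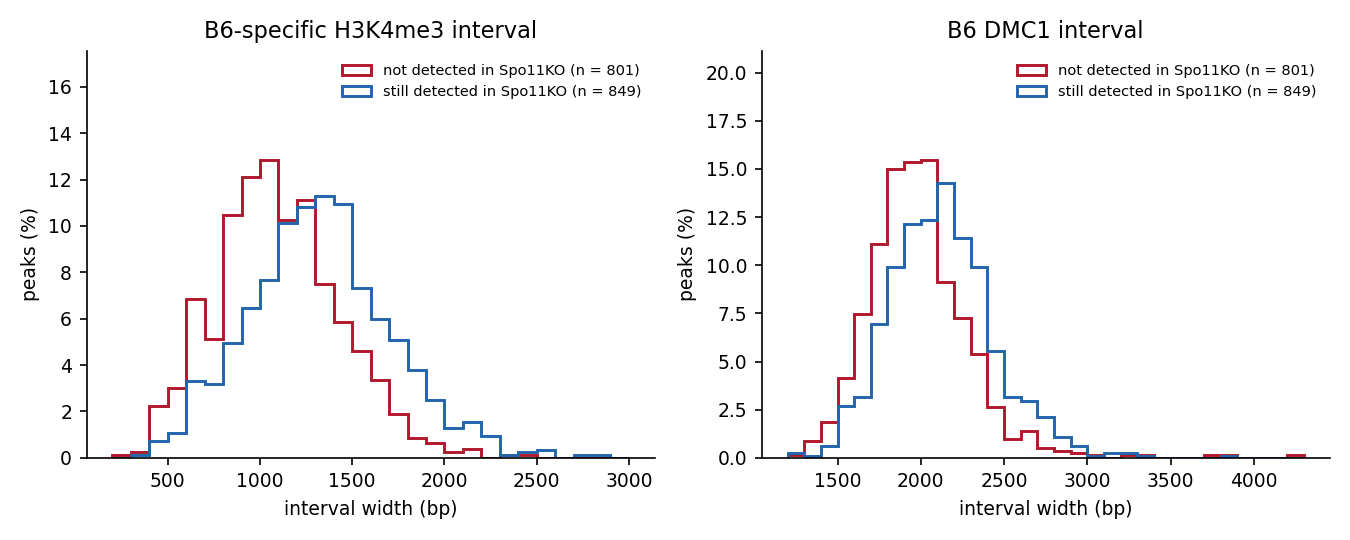
Percent of peaks by width (bins of 100 bp) of the overlapping B6-specific H3K4me3 interval (left) and B6 DMC1 interval (right), for undetected (red, n = 801) and still detected (blue, n = 849) class 1a peaks. The red curves lie to the left, with medians of 1081 against 1319 bp for H3K4me3 and 1960 against 2110 bp for DMC1.

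Dom2 sequence matches were about equally frequent in both groups, and their score did not pass the test in either main fit. A match lay in the central 200 bp of 504 of 801 undetected peaks (62.9%, interval 59.5 to 66.3%) and 541 of 849 still detected peaks (63.7%, interval 60.4 to 67.0%), against 50.3% of all 2601 B6 peaks. In windows 1.1 kb away matches were found at 4.99 and 5.87% of undetected peaks and at 4.59 and 5.30% of still detected ones, left and right of the peak. At least 2 matches were present in 19.2% of undetected and 17.4% of still detected centres, and the word TGCTGCTGC itself in 5.24 and 5.18%. The median score was 12.6 bits in undetected and 13.0 bits in still detected peaks. Its odds ratio was 1.01 per SD alone (0.91 to 1.11; adjusted p = 0.908) and 0.92 at equal list position and width (0.81 to 1.04; adjusted p = 0.232, n = 1650 peaks). The outcome at equal list position depended on the fit, since the odds ratio was 0.81 with list position alone as the covariate (adjusted p = 0.000722) and 0.79 with GC content added (adjusted p = 0.00117, n = 1650 peaks). The matches lay a median of 34.5 bp from the centre of undetected and 33.5 bp of still detected peaks (adjusted p = 0.281 alone, n = 1650 peaks).

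Undetected hotspots lay more often in and near genes. Their centres were inside an annotated gene at 485 of 801 peaks (60.5%, interval 57.1 to 64.0%), against 400 of 849 still detected peaks (47.1%, interval 43.7 to 50.5%; adjusted p = 8.55e-08 alone and 1.24e-06 at equal list position and width, n = 1650 peaks). Introns held 49.7% of undetected and 41.2% of still detected centres, counting apart those within 1 kb of a transcription start, and intergenic sequence 38.8 and 52.4%. Coding exons, here with centres within 1 kb of a start included, held 40 undetected centres (4.99%, interval 3.59 to 6.74%) and 21 still detected ones (2.47%, interval 1.54 to 3.76%). The median distance to the nearest transcription start was 17721 bp in undetected and 31191 bp in still detected peaks. The odds ratio was 0.62 per SD of log10 distance at equal list position and width (0.55 to 0.70; adjusted p = 3.08e-14) and 0.72 with GC content added (adjusted p = 1.67e-06, n = 1650 peaks). Within 1 kb of a start lay 43 undetected peaks (5.37%, interval 3.91 to 7.16%) and 28 still detected ones (3.30%, interval 2.20 to 4.73%), with overlapping intervals. From the GC-poorest to the GC-richest of the 5 groups they numbered 4, 7, 3, 9 and 20 undetected peaks, against 1, 7, 6, 12 and 2 still detected ones. The GC-richest group held 253 of all 801 undetected and 74 of all 849 still detected peaks.

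Position along the chromosome differed as well. Mouse chromosomes have their centromere at one end. Undetected peaks lay nearer to the other, distal end, at a median of 56.0 Mb against 65.8 Mb for still detected peaks (odds ratio 0.78 per SD at equal list position and width, 0.69 to 0.87; adjusted p = 4.14e-05, n = 1650 peaks). Undetected peaks had 1.34 ± 1.25 other B6 DMC1 peaks within 100 kb and still detected peaks 1.09 ± 1.08 (SD). This difference passed in the main fit with list position and width (odds ratio 1.15; adjusted p = 0.0340) and not with GC content added (1.07; adjusted p = 0.260, n = 1650 peaks). By chromosome the share of undetected peaks was highest on chromosomes 17 (35 of 57, 61.4%) and 11 (54 of 88, 61.4%) and lowest on the X chromosome (12 of 36, 33.3%, interval 18.6 to 51.0%) and chromosome 3 (29 of 81, 35.8%). Class 1a peaks averaged 45.7% GC on chromosome 17, 45.9% on chromosome 11, 40.7% on the X chromosome and 42.5% on chromosome 3. Other chromosomes did not keep to that order. Chromosome 19 had 46.2% GC with 14 of 32 peaks undetected (43.8%), and chromosomes 7 and 15 had 46.2 and 46.0% GC with 50% undetected each. The X chromosome as a measure did not pass in the main fits (adjusted p = 0.0826 alone and 0.574 at equal list position and width, n = 1650 peaks).

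**Figure D5:**
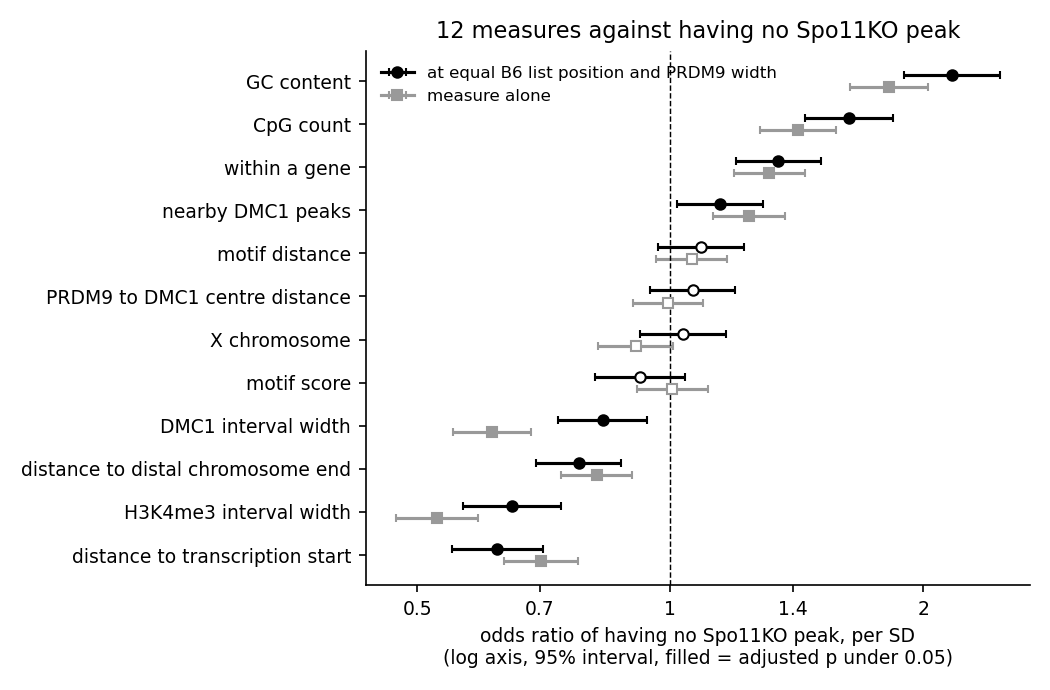
Odds ratio of having no Spo11KO peak per SD of each of 12 measures over the 1650 class 1a peaks, with 95% Wald intervals on a log axis, for the measure alone (grey squares) and at equal B6 list position and PRDM9 width (black circles). Filled symbols passed at an adjusted p of 0.05, as 8 of 12 did in each fit, with GC content at 2.16 and distance to a transcription start at 0.62 as the outermost black points.

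The 10 undetected hotspots highest in the B6 list included the widest ones. The first entry of the B6 list, chr4:119914887-119916324, was among them. It is intergenic, 44348 bp from the start of Foxo6, which encodes a forkhead transcription factor. The nearest Spo11KO peak lay 1729183 bp away, and the site had a DMC1 interval of 2330 bp and an H3K4me3 interval of 1741 bp. Still detected peaks filled the places 2 to 6, in intergenic sequence, an intron of Capzb and a coding exon of Rnf17, and held the places 1, 5, 4, 11 and 6 of the Spo11KO list. The next undetected peaks were chr3:107418861-107420174 at position 99, in a coding exon of Fam40a, and chr9:43942951-43944041 at position 118, in an intron of Mcam, which encodes a cell adhesion molecule, 755 bp from its start. Position 154 was chr11:80291118-80291776, in coding sequence of Cdk5r1, the activator of the neuronal kinase CDK5, 889 bp from the start, with 11 CpG in its central 200 bp. Position 168, chr7:105537551-105538283, lay 28079 bp from Tsku, and position 207, chr12:16650409-16651222, 9460 bp from Ntsr2, a neurotensin receptor. Position 231, chr4:139006310-139007615, lay in an intron of Ubr4, a ubiquitin ligase, and position 233, chr17:32188115-32189078, in a non-coding exon annotated to Rrp1b, 152 bp from a transcription start of that gene. Position 258, chr15:76331743-76332568, was 1454 bp from the start of Dgat1, an enzyme of triglyceride synthesis. Position 260, chr5:145600141-145600743, lay in a coding exon of Trrap, a subunit of histone acetyltransferase complexes, 588 bp from an annotated start, with 3 matches and 12 CpG. Of these 10, 8 had over 50% GC and 4 were within 1 kb of a start.

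Other undetected hotspots stood at the ends of single measures. The widest DMC1 intervals, of 4278, 3828 and 3758 bp, covered peaks in introns of Pkd2l1 (chr19:44223272-44223844) and Ube3a, an imprinted ubiquitin ligase gene (chr7:66489034-66489469), and a coding exon of Ttn, which encodes titin (chr2:76746764-76747382). The widest H3K4me3 intervals, of 2412, 2388 and 2178 bp, covered an intergenic peak 2975 bp from Gm16886 (chr12:114971372-114972239), a peak in Dock3 479 bp from its start (chr9:106854842-106855457) and the Fam40a peak. The highest matrix scores were found in introns of Ubr3 (chr2:69850603-69851109), Laptm4b (chr15:34212883-34213179) and Rnf145 (chr11:44344191-44344624). The undetected peak lowest in the list was in intergenic sequence (chr7:101796968-101797265, position 2589), with 39% GC, where the peaks at the head had 63% (position 1) and 44% (position 99). Of 44 genes of meiotic recombination, synapsis and cohesion, 39 were found by symbol in the annotation, and 0 of them held an undetected or a still detected class 1a peak. Of all 22238 protein-coding genes 3.47% held one, so that a count of 0 in 39 is read as nothing particular to these genes.

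Some genes and short stretches held hotspots of both kinds. Protein-coding genes that held an undetected peak numbered 444, of which 31 held at least 2 and 31 also held a still detected one. Among neighbouring class 1a peaks less than 20 kb apart, 19 pairs were both undetected, 12 were mixed and 10 were both still detected. These counts over 41 pairs were not tested, and nothing is read from them beside the 48.5% undetected among all class 1a peaks. The closest mixed pair lay 3725 bp apart on the X chromosome (undetected chrX:42477300-42477789 with 36.5% GC, still detected chrX:42473217-42473574 with 31% GC). In another, on chromosome 12, the undetected peak had the lower GC content (34.5%, position 1276, against 43.5%, position 669).

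Overlap with the remaining lists was rare, and the making of the lists fixed much of this in advance. B6 peaks also found in Prdm9KO testis or shared with RJ2 had been removed, and the rule asked for B6-specific H3K4me3. The few overlaps are therefore given as a description. A Prdm9KO interval, a measure of what the antibody recovers without PRDM9, overlapped 1 of 801 undetected peaks (chr12:59398018-59398443, position 1475) and 0 of 849 still detected ones. Why this peak stayed in the B6 list is not given in the sources used here. An RJ2 DMC1 interval overlapped 6 undetected peaks (0.749%, interval 0.275 to 1.62%) and 2 still detected ones (0.236%, interval 0.0285 to 0.848%), and its central 400 bp met 0 and 1. The 6 lay in introns of Nudcd3, Scarb1 and Eps15l1, in a UTR of Phf6, within 1 kb of the start of Sumo3, and 12492 bp from Mpped2. RJ2-specific H3K4me3 met 1 undetected peak, in an intron of Map4k4. In the other direction, 57 of the 147 Spo11KO peaks without a peak in the deposited B6 list met the same DMC1 and H3K4me3 conditions. These 57 averaged 43.3 ± 4.44% GC (SD) and had a match at 37 of 57 centres (64.9%).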

How the data were processed

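The authors deposited interval positions on mm9, with no score or read count, for PRDM9, DMC1 and H3K4me3 ChIP-seq. Per their methods, PRDM9 and DMC1 reads were aligned to mm9 (Bowtie2, BWA), filtered to unique non-duplicate reads, and called with MACS2 on pooled replicates, with the number of peaks set by the irreproducible discovery rate, H3K4me3 was aligned with Bowtie, and PRDM9 peaks also found in Prdm9KO or shared by B6 and RJ2 were removed from the B6 list. Such thresholds decide whether a weak peak is listed at all.

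The 9 lists were read as deposited, and H3K36me3 was not analysed here. The members, measures and lists were chosen with earlier results of these data known. Sequences and genes came from NCBIM37 (mm9) and GENCODE vM1. Membership was fitted by logistic regression (statsmodels 0.14.6, Python 3.11.15) on each of 12 measures, alone and with B6 list position and log2 width, with likelihood-ratio p and Benjamini-Hochberg adjustment, and the code was checked on simulated data. Shares carry 95% Clopper-Pearson intervals (scipy 1.17.1), which cover counting of peaks only. DMC1 list position and repeat share, also planned, were not used because the DMC1 list is in coordinate order and the genome is not soft-masked. Named sites are the 10 highest and 2 lowest in the list, the 3 at the top of PRDM9, DMC1 and H3K4me3 width and of motif score, the 3 nearest to a Spo11KO peak, those over RJ2 or Prdm9KO marks, and those at the edges of the rule; 1 of the 2 lowest is not reported here. GC extremes, gene counts and close pairs were chosen after their values were seen. As alternatives, other definitions of overlap, subsets of the peaks, sequence windows and covariates were tried.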

Additional observations from a re-analysis of the deposited data

How the results depend on the processing

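The number of undetected class 1a peaks was 183 of 767 (23.9%) when the B6 list was kept to its first 1070 places, and within 1.5 times of 801 under the other alternatives. GC content, CpG count, distance to a transcription start, position within a gene, distance to the distal end and H3K4me3 width kept their direction. They passed in both fits under every alternative run for them. CpG count was not fitted with GC content added. Odds ratios at equal strength were 1.96 to 4.10 for GC content and 0.55 to 0.75 for H3K4me3 width. Equal strength stands here for equal B6 list position and PRDM9 width, or the covariates named, since no signal per peak was available. DMC1 width passed in all but 1, the fit with GC content added after the data were seen (0.906, adjusted p = 0.173, n = 1650 peaks). Motif score alone turned below 1 with a Spo11KO peak over the B6 centre (0.936), at the head of the list (0.878) and over the whole PRDM9 interval (0.863, adjusted p = 0.00397, n = 1650 peaks). At equal strength it passed with a Spo11KO peak over the centre (0.870), with list position only (0.812) and with GC content added (0.789), and turned to 1.05 with the matrix without flanking bases. PRDM9 to DMC1 distance alone turned above 1 with a Spo11KO peak over the centre (1.08), the whole DMC1 interval (1.04) and the head of the list (1.18), and at equal strength it passed with a Spo11KO peak over the centre (1.15, adjusted p = 0.0232) and with list position only (1.15, adjusted p = 0.0179, n = 1650 peaks). Motif distance turned below 1 over the whole PRDM9 interval (0.914) and with the matrix without flanking bases (0.964) alone, and at the head of the list (0.978) and with that matrix (0.983) at equal strength, where it passed with list position only (1.19, adjusted p = 0.00436, n = 1650 peaks). The X chromosome at equal strength turned below 1 with H3K4me3 over at least 50% (0.996) and with list position only (0.937). Alone it passed with the DMC1 centre inside the PRDM9 interval (0.887, adjusted p = 0.0340, n = 1558 peaks) and with H3K4me3 over at least 50% (0.877, adjusted p = 0.0163, n = 1632 peaks). The number of nearby DMC1 peaks no longer passed at equal strength with a Spo11KO peak over the centre (1.13), at the head of the list (1.05) and with GC content added (1.07), nor alone at the head of the list (1.12, adjusted p = 0.208, n = 767 peaks). The causes were not tested. No paired analysis was possible because the lists pool the replicates, and for the same reason no replicate could be left out.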
